A study of Mus musculus with 10 samples.

Results

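The AP-1 family genes described here are Jun, Junb, Jund, Fos, Fosb, Fosl1, Fosl2, Atf3, Batf and Maff. They were taken as a named list, and every region that the deposited tables assign to 1 of these symbols was used. They make up 10 of 22473 gene symbols in 5 tables, and 143 of 340994 listed regions. AP-1 is a dimer of bZIP proteins in which a JUN protein pairs with another JUN, a FOS or an ATF protein and binds a short DNA element. Many of these genes are immediate early genes, switched on within minutes of a growth factor or stress signal, and AP-1 proteins are known to act on their own genes. In fibroblasts AP-1 cooperates with SMAD3, the transcription factor downstream of the TGF-β receptor, and with NFAT proteins such as NFATC2, which respond to calcium.

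Primary cardiac fibroblasts from mouse heart were profiled by CUT&Tag. In this assay a transposase is tethered by an antibody to the protein or mark of interest, cuts the nearby DNA and leaves adapters there for sequencing. The comparisons ask whether loss of hexokinase 1 (HK1), the first enzyme of glycolysis, alters where c-JUN, NFATC2 and SMAD3 bind and where histone H3 carries lactylated lysine 9 (H3K9lc), and whether TGF-β alters H3K9lc. The NC library is titled as the control. The TGF libraries came from cells given TGF-β, and the siHK1 libraries from cells transfected with an siRNA against Hk1 and then given TGF-β. The labels name no control siRNA for the TGF libraries, and no label names a strain, age or animal, or says whether cells of several animals were pooled. TGF and siHK1 each had 1 library for JUN, SMAD3, NFATC2 and H3K9lc, and NC had 1 library, read as H3K9lc from the table its label names. With 1 library per group no difference between groups was tested. The tables used here hold no RNA or protein measure, so neither the knockdown nor the expression of any gene below was checked in them.

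Reads over listed regions summed to 4215447 for TGF and 2271336 for siHK1 in the JUN table, and to 2490853 and 1419023 in the H3K9lc table. Reads were fewer for SMAD3 (563562 and 399897) and NFATC2 (575706 and 354599), and the NC library had only 115572 beside 2313288 for TGF in the table that holds both. These totals are not library depths. Ratios below are log2 of (reads + 0.5) of the second library over the first after both were brought to equal totals, which hides any loss shared by the whole table. Their 95% intervals are exact (Clopper-Pearson) and cover counting error only, with no error between replicates. Reads copied by PCR do not count molecules independently, so these intervals and the Poisson intervals below can be too narrow. A region was counted as lower or higher when it was past 2-fold. Nearly all regions carry a called peak in 1 library of a pair or in both. A region listed through a peak in 1 library alone was chosen where that library is high, so its ratio and interval describe it and do not support a difference. For the cell type, 9 of 10 fibroblast markers had a JUN region within 3 kb of a start site, all but Lum. So had 2 of 7 cardiomyocyte markers (Myh6, Tnni3), 3 of 5 endothelial markers (Pecam1, Cdh5, Tie1) and 2 of 5 macrophage markers (Csf1r, Cd68). Of all 22473 symbols, 11980 had such a region. A region at a promoter is no measure of expression.

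JUN was found at all 10 genes, and at 75.5% of the 22473 symbols. The JUN table assigned 53 regions to them, 15 to Jun, 8 to Fos, 7 to Fosl2, 6 to Fosb, 5 to Maff, 4 each to Fosl1 and Atf3, 2 to Junb and 1 each to Jund and Batf. All genes except Batf, 9 in number, had a JUN region within 3 kb of a start site, as did 70.6% of all genes with a JUN region. Promoter regions were 19 of the 53 (35.8%), against 25.6% of all JUN regions. Jun stood high in the number of its regions: the median over 16970 genes was 2, and 812 genes had at least as many as Jun, which placed it at percentile 95.8.

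The sequences at these regions are shown because JUN, as part of AP-1, is known to bind TGACTCA, which reads TGAGTCA on the other strand. A related element, TGACGTCA, is preferred by JUN dimers with ATF proteins. The lines below give the plus strand of GRCm38 around the match nearest to the middle of 8 regions: the strongest region of Jun, a distant Jun region with fewer siHK1 reads, the strongest regions of Fosb, Fosl2 and Atf3, the start site of Fosl1, and the 2 regions with TGACGTCA. Capitals mark the element. Regions without a match are not shown. The element lies 339 bases from the middle of the first Jun region, 263 at Fosl2 and 260 at Maff, outside the central 200 bp.
Jun, 53.1 kb upstream, chr4:95105541-95105601: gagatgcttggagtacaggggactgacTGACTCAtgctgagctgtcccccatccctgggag
Jun, 136 kb upstream, chr4:95188205-95188265: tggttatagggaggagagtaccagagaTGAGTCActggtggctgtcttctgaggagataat
Fosb, 6.44 kb upstream, chr7:19316973-19317033: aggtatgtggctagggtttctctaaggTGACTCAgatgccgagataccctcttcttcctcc
Fosl1, start site, chr19:5447870-5447930: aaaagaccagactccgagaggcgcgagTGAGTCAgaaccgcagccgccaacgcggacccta
Fosl2, start site, chr5:32135827-32135887: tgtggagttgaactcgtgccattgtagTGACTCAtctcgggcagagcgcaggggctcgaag
Atf3, promoter, chr1:191216278-191216338: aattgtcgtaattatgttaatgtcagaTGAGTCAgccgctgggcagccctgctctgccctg
Jund, start site, chr8:70698708-70698769: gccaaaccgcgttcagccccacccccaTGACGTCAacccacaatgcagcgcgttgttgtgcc
Maff, promoter, chr15:79347464-79347525: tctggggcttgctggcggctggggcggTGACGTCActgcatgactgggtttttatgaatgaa

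The shares of these letters at AP-1 family genes and in the whole table were as follows. TGACTCA or TGAGTCA, on either strand, lay in the central 200 bp of 9 of 53 regions (17.0%), against 24.1% of all 72990 JUN regions, and anywhere in 18 of 53 (34.0%), against 42.6%. In promoter regions the central share was 15.8%, against 14.4% of all promoter regions. Outside promoters it was 17.6%, against 27.4%. TGACGTCA occurred in 2 regions, at Jund and Maff (3.77%, against 1.5% of all). The regions at AP-1 family genes were wider, with a median of 594 bp against 446 bp, which gives a whole-region search more bases.

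Jun is the gene whose promoter is best known for AP-1 elements that depart from TGACTCA, with TGACATCA near the start and TTACCTCA further upstream. Its RefSeq promoter on GRCm38.p6, from 250 bases before to 50 after the start, is shown for that reason, 5′ to 3′ on the minus strand with both elements in capitals.
Jun promoter, chr4:95052173-95052472, minus strand: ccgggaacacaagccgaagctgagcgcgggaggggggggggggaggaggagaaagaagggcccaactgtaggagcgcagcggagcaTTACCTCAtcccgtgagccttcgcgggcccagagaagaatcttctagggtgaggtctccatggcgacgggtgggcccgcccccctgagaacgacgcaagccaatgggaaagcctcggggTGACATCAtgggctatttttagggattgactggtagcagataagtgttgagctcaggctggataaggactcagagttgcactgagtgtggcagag

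TTACCTCA begins 164 bases before the start and TGACATCA 45 bases before it, both inside the JUN region at the Jun promoter. Over 32851 RefSeq promoters of this length, 0.889% hold TTACCTCA or its reverse complement TGAGGTAA, and 3.62% hold TGACATCA or its reverse complement TGATGTCA. RefSeq promoter windows were found for 9 of the 10 genes, all but Fosl1, 11 windows in all. Those of Jund, Batf and Fosl2 overlap no JUN region, so the Jund and Fosl2 windows are not the start site regions shown above. The Jund window thus leaves out the TGACGTCA shown for Jund. None of the 11 holds TGACTCA or TGAGTCA, as do 5.20% of all promoters. Maff holds TGACGTCA in 1 of its 3 windows, beginning 29 bases before the start (1.79% of all promoters), and TGACATCA in another. Across whole JUN regions, TTACCTCA or TGAGGTAA was found in 4 of the 53, at Jun, Junb, Fosb and Maff (7.55%, against 1.56% of all), and TGACATCA or TGATGTCA in 2 of the 53 (3.77%, against 4.71%). These letters were searched after the data were seen, and a match is not a binding site.

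JUN levels were high at these genes in both libraries. The median region had 111 reads per kb in TGF and 56.3 in siHK1, where all JUN regions had medians of 72.1 and 37.3. Of the 53 regions, 39 lay above the median level of the table, 9 in its top 10% and 4 in its top 5%.

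**Figure D1:**
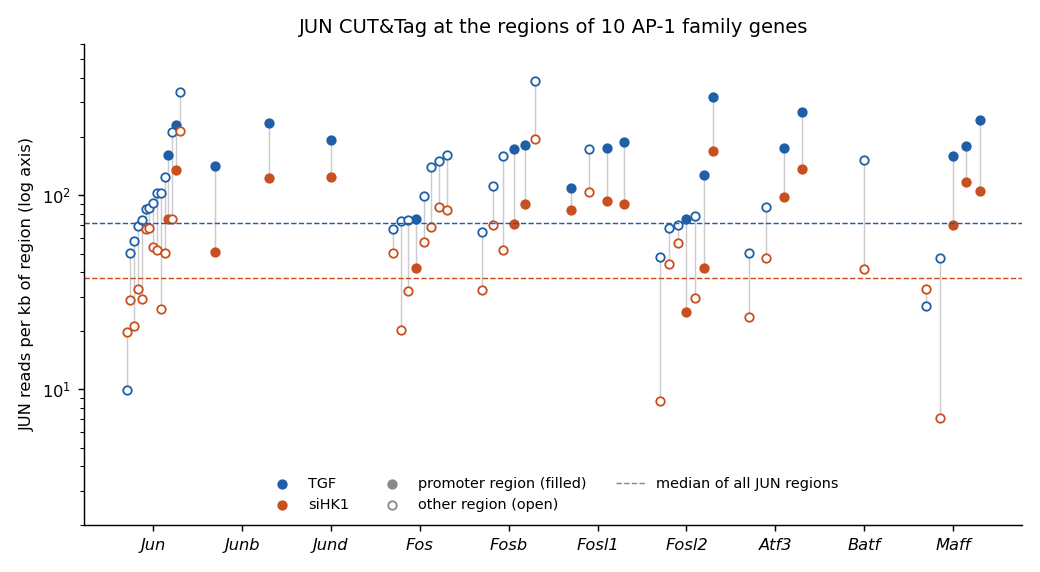
Raw JUN reads per kb (log axis) at each of the 53 regions of 10 AP-1 family genes, in the TGF (blue) and siHK1 (red) library, with promoter regions filled, a grey line joining the 2 libraries of a region, and dashed lines at the medians of all JUN regions (72.1 and 37.3). The libraries are not scaled here and the TGF library holds more reads. The strongest regions, of Fosb (389 reads per kb in TGF), Jun (340) and Fosl2 (319), stand well above the dashed lines in both libraries.

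Among the JUN proteins, Jun encodes c-JUN, the protein the antibody recognises. Its promoter region, chr4:95051739-95052966, covers the start site and exons of Jun and of the antisense transcript Junos. It had 282 reads in TGF and 165 in siHK1, or 230 and 134 per kb (percentile 94.8 of all JUN regions). After scaling, the ratio was 0.12 (95% interval -0.17 to 0.40). The strongest region of Jun was elsewhere, 53.1 kb upstream in an intron of Junos (chr4:95105316-95106505, percentile 98.7). It had 405 reads in TGF and 256 in siHK1, or 340 and 215 per kb, a ratio of 0.23. The per kb levels of these 2 Jun regions did not overlap by exact Poisson 95% intervals in either library (204 to 258 against 308 to 375 in TGF, 115 to 157 against 190 to 243 in siHK1). The upstream region was picked as the strongest of the 15 Jun regions, so this describes it and is no test. Over all 15 regions Jun had 1279 and 699 reads, a ratio of 0.02 (-0.11 to 0.15).

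The 4 Jun regions more than 100 kb upstream all had ratios below 0, with 265 reads in TGF and 92 in siHK1 in all. The other 11 regions had 1014 and 607 reads, and 4 of them were below 0. The distance was chosen after these values were seen, and 3 of the 4 distant regions had a peak in TGF only, so the lower siHK1 reads there are a description and no support for a difference. The deepest of the distant regions, chr4:95187971-95188632, 136 kb upstream and between genes, had a peak in both libraries, with 140 and 50 reads (ratio -0.58, -1.09 to -0.12). Its neighbour chr4:95193209-95193674, in an exon of the lincRNA Gm12708 and with a peak in TGF only, had 48 and 12 reads (ratio -1.06, -2.16 to -0.17). The highest Jun ratio among regions with a mean of at least 20 scaled reads was downstream, at chr4:95025886-95026288 in an intron of the antisense transcript Gm12694, with a peak in both libraries and 34 and 27 reads (ratio 0.56, -0.23 to 1.33). The tables assign a region to the nearest start site, which does not show that it acts on Jun.

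**Figure D2:**
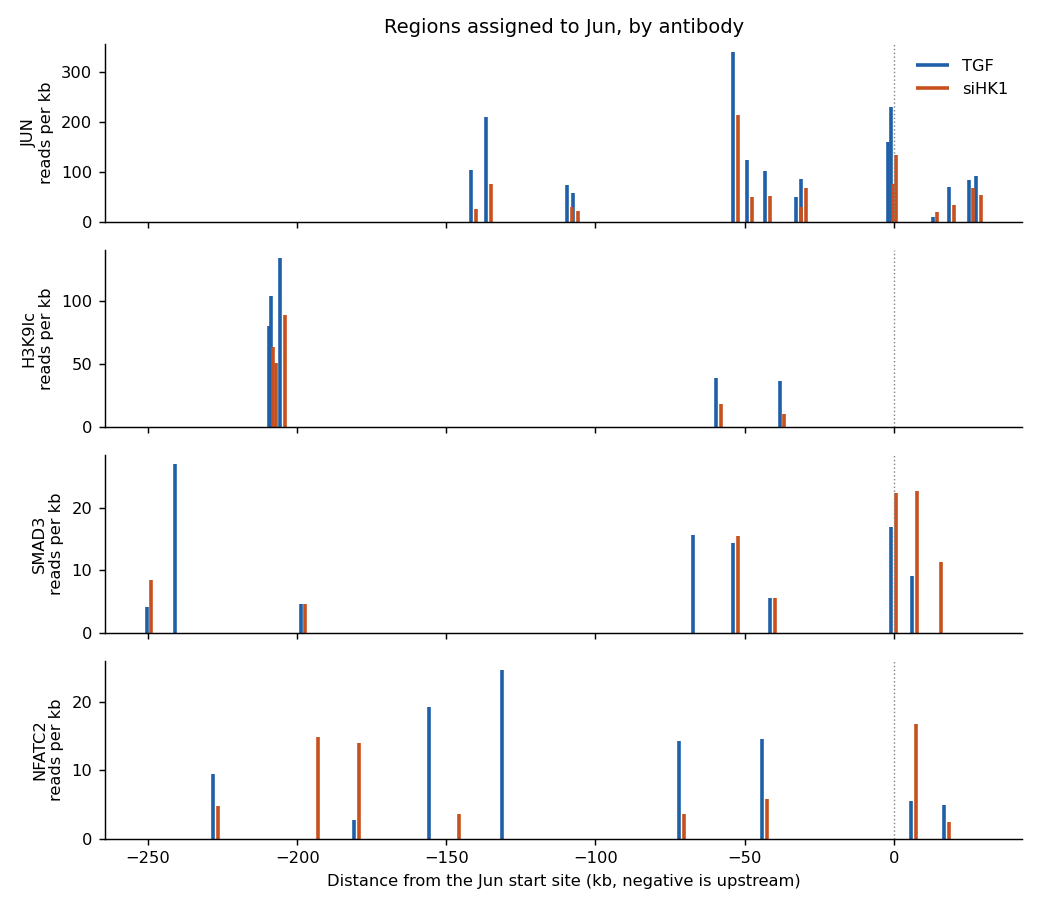
Raw reads per kb at every region assigned to Jun, against its distance from the Jun start site in kb (negative is upstream), for JUN, H3K9lc, SMAD3 and NFATC2 in the TGF (blue) and siHK1 (red) library, with bars moved slightly apart to show both and a separate vertical scale in each panel. JUN and SMAD3 both have a region at the start site and 1 about 53 kb upstream, while the 5 H3K9lc regions lie 37.4 to 209 kb upstream.

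Junb and Jund, whose proteins pair like c-JUN but are weaker or antagonistic activators in many settings, had JUN at their promoters only. At Junb the stronger region, chr8:84979309-84980368, 0.591 kb upstream, gave 248 reads in TGF and 129 in siHK1 (234 and 122 per kb, ratio -0.05, -0.37 to 0.26). A second Junb region, 0.147 kb upstream, had 36 and 13 reads (ratio -0.54, -1.62 to 0.37). At Jund the single region, chr8:70698448-70699133, had 131 and 85 reads (191 and 124 per kb), a ratio of 0.27 (-0.14 to 0.67). It lies over the start site and holds the TGACGTCA shown above.

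Among the FOS proteins, which need a JUN partner, Fos had the lowest promoter level. The Fos promoter region, chr12:85473508-85473864, had 27 reads in TGF and 15 in siHK1, or 75.6 and 42.0 per kb (percentile 55.1), a ratio of 0.06 (-0.97 to 1.01). Stronger Fos regions lay between genes, with the highest 44.5 kb downstream at 161 and 84.2 per kb (122 and 64 reads, ratio -0.03). A region 17.9 kb upstream, where SMAD3 and NFATC2 were also listed, had 142 and 69 JUN reads (ratio -0.14, -0.59 to 0.28), and 1 lying 22.5 kb downstream had 132 and 76 (0.10, -0.33 to 0.51). Its 8 regions summed to 588 and 312 reads, a ratio of -0.02 (-0.22 to 0.18).

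Fosb carried the strongest region of all 53. It lies 6.44 kb upstream between genes (chr7:19316495-19317419) and had 360 reads in TGF and 179 in siHK1, or 389 and 194 per kb (percentile 98.7), a ratio of -0.11 (-0.38 to 0.15). The stronger Fosb promoter region had 256 and 128 reads (181 and 90.3 per kb, ratio -0.11). Further upstream, in an exon of the lincRNA D830036C21Rik, chr7:19319513-19320147 had 101 and 33 reads, with a peak marked in TGF only, a ratio of -0.71 (-1.34 to -0.14). Over 6 regions Fosb had 953 and 470 reads (ratio -0.13, -0.29 to 0.03).

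Fosl1 and Fosl2 encode FRA-1 and FRA-2, FOS proteins without a strong activation domain. The Fosl2 start site, chr5:32135121-32136067, had 302 and 160 reads, or 319 and 169 per kb (percentile 97.7), a ratio of -0.02 (-0.31 to 0.26). It was the highest JUN promoter level of the 10 genes. Its region 11.6 kb upstream, chr5:32123732-32124246, with a peak in siHK1 only, had 36 and 29 reads (ratio 0.58, -0.18 to 1.33). Fosl2 had 522 and 264 reads in all (ratio -0.09). At Fosl1 4 regions lay within 3.86 kb of the start site, with 285 and 163 reads and a ratio of 0.09 (-0.20 to 0.37). Its start site region, chr19:5447557-5448141, had 64 reads in TGF, where no peak was marked, and 49 in siHK1, where 1 was (ratio 0.51, -0.06 to 1.07).

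Atf3, a stress-induced bZIP gene whose protein often represses, had 231 and 118 reads at a promoter region in its intron (chr1:191215973-191216838, 267 and 136 per kb, ratio -0.07) and 140 and 78 at another start site (ratio 0.05). Maff encodes a small MAF protein, a bZIP protein that lacks an activation domain. Its promoter region chr15:79346011-79346707 had 171 and 73 reads (245 and 105 per kb, ratio -0.33, -0.75 to 0.07), and chr15:79347175-79348335, which holds TGACGTCA, had 208 and 136 (ratio 0.28, -0.04 to 0.60). At the 3′ end of Maff, in its UTR, chr15:79357348-79358017 had 18 reads in TGF and 22 in siHK1, where alone a peak was marked, a ratio of 1.17 (0.22 to 2.17). The summed Maff ratio was 0.03 (-0.20 to 0.25).

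Batf, best known in lymphocytes, was the gene without a JUN region near its start site. Its only JUN region lies 18.5 kb into the gene, in an intron (chr12:85705147-85705744), and had 90 reads in TGF and 25 in siHK1, or 151 and 41.8 per kb. A peak was marked in both libraries. The ratio was -0.94 (-1.66 to -0.30), at percentile 12.6 of all JUN ratios. It rests on 1 region, while the sums of Jun, Fos and Fosb above join 6 to 15 regions.

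By the strongest promoter region of each gene, JUN levels in TGF ordered as Fosl2 (319 reads per kb), Atf3 (267), Maff (245), Junb (234), Jun (230), Jund (191), Fosl1 (188), Fosb (181) and Fos (75.6). The exact Poisson intervals of neighbours overlapped from Fosl2 (284 to 357) down to Fosb (159 to 204). That of Fos (49.8 to 110) lay below all the others.

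Between TGF and siHK1, JUN at AP-1 family genes was close to the rest of the table. Of the 53 regions 3 were lower in siHK1 past 2-fold, at Jun, Fosl2 and Maff, and 11.4% of all JUN regions were. Higher regions were 2 of 53, at Jun and Maff, and 7.44% of all were higher. The Fosl2 region (11 and 2 reads), the lower Maff region (20 and 3 reads) and the higher Jun region (3 and 6 reads) rest on few reads. The median ratio was -0.07 at these genes and -0.04 over all regions, and the quartiles were -0.38 and 0.16 against -0.51 and 0.35. The interval of the ratio lay below 0 for 5 regions, 2 at Jun and 1 each at Batf, Fosb and Maff, and above 0 for the Maff UTR region. It lay below 0 for 9.26% of all JUN regions and above 0 for 8.15%. Of these 6 regions at AP-1 family genes only the Batf region and the Jun region 136 kb upstream had a peak in both libraries, and the others were listed through the library where they are high. Summed over all 53 regions, there were 5028 reads in TGF and 2642 in siHK1, a ratio of -0.04 (-0.10 to 0.03). Without scaling, which moves every JUN ratio by -0.89, the median ratio was -0.97. Peaks were marked in both libraries at 29 of 53 regions (54.7%, against 49.7% of all), in TGF only at 19, in siHK1 only at 4 and in neither at 1. The median ratio was -0.02 where both libraries had a peak, -0.46 where only TGF had 1 and 0.88 where only siHK1 had 1. Over all JUN regions it was 0.08, -0.57 and 1.05 in the same order.

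**Figure D3:**
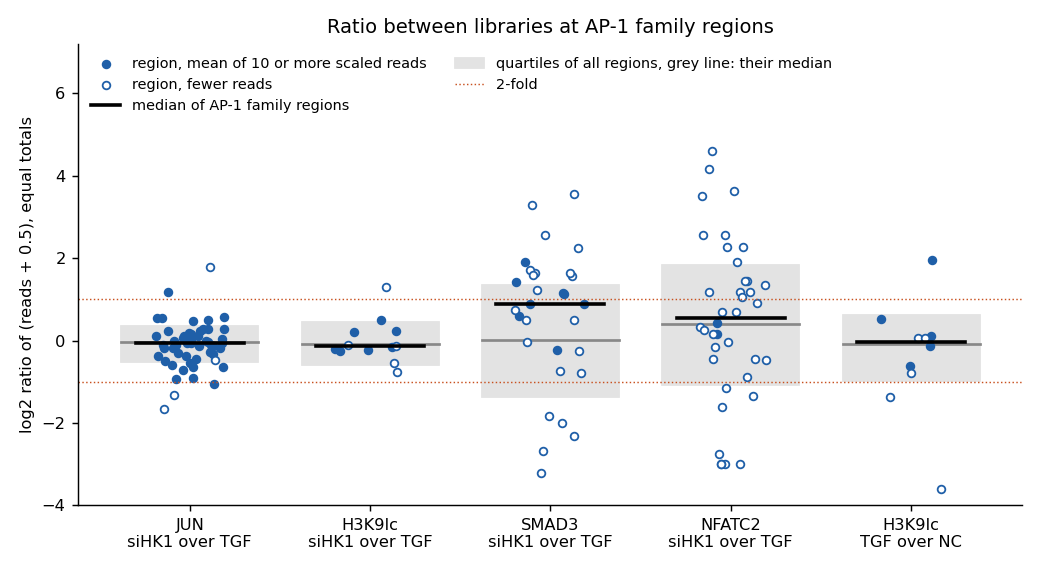
Log2 ratio at every AP-1 family region (points) in each of the 5 comparisons, siHK1 over TGF for JUN, H3K9lc, SMAD3 and NFATC2 and TGF over NC for H3K9lc, with open points where the mean of both scaled counts is under 10. Black bars are the medians of these regions, grey boxes and lines the quartiles and median of all regions of the table, and dotted lines 2-fold. The JUN points run from -1.66 to 1.79, with quartiles of -0.38 and 0.16 around a median of -0.07, and the SMAD3 median (0.89) lies above the grey line (0.01).

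SMAD3, the TGF-β receptor's transcription factor, was listed at 9 of the 10 genes, all but Batf, with 30 regions, and at 74.0% of the 22473 symbols. Each of these 9 genes had a SMAD3 region within 3 kb of a start site, as did 51.3% of the 11980 genes with a JUN region there. Reads were few, at most 31 in a region in 1 library and 49 over both, and 14 of the 30 regions had under 10 reads over both libraries. Of the JUN regions at these genes 14 of 53 (26.4%) overlapped a SMAD3 region by at least 1 bp, and 18.1% of all JUN regions did (26.1% of those at promoters).

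Of the 30 SMAD3 regions 17 had a peak in siHK1 only, 11 in TGF only and 2 in both, so nearly all were listed through 1 library. The regions named next had a peak in siHK1 only, except where another mark is given. The Fos promoter region had 6 reads in TGF and 17 in siHK1, a ratio of 1.92 (0.59 to 3.63). The Fosb region over its exon (chr7:19307275-19308225) had 16 and 31 reads (1.43, 0.53 to 2.42), and the region at its start, with a peak in both libraries, 8 and 13 (1.16, -0.18 to 2.67). The Junb promoter had 19 and 30 reads (1.14, 0.28 to 2.06). At the Jun promoter there were 19 and 25 reads (0.88, -0.03 to 1.83), and at the Jun region about 53 kb upstream 13 and 14 (0.60, -0.60 to 1.81). A Fosl2 intron region had 1 and 12 reads (3.55, 1.32 to 9.50), and the Fos region about 22.7 kb downstream 2 and 10 (2.57, 0.59 to 6.05). Going the other way were regions with a peak in TGF only. Fosl1 had 8 and 3 reads (-0.79, -3.47 to 1.14), and Jund had 6 and 4 (-0.04, -2.36 to 1.99). The 5 regions lower past 2-fold had 7 and 1 reads at Fos, 8 and 1 at Fosl2, 3 and 0 and 6 and 0 at Jun, and 4 and 0 at Maff. Of the 8 regions with a mean of at least 10 scaled reads, 7 had a ratio above 0, the exception being the Fos region 50.7 kb downstream with a peak in both libraries and 30 and 18 reads (-0.23, -1.17 to 0.65). Of all 5598 SMAD3 regions with that mean 55.1% had a ratio above 0, and 82.5% of those at promoters, where 5 of the 8 lay.

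Past 2-fold, 14 of 30 SMAD3 regions were higher in siHK1 and 5 were lower, beside 32.8% and 31.7% of all SMAD3 regions. Of the 14 higher regions 12 had a peak in siHK1 only, and all 5 lower ones had a peak in TGF only. Regions with a peak in siHK1 only had a median ratio of 1.56 at these genes and 1.41 over the table, and those with a peak in TGF only -0.79 and -1.38. The median ratio was 0.89, against 0.01 over all regions, and it kept its sign without scaling (0.39). SMAD3 promoter regions as a class were also high, with a median of 0.86 over the table. At AP-1 family genes the promoter median was 1.15 over 10 regions, 6 of them higher past 2-fold, where 44.6% of all SMAD3 promoter regions were. Outside promoters it was 0.55 over 20 regions, against -0.16 over all others of that class. The interval lay above 0 for 6 of the 30 regions, all of them with a peak in siHK1 only, and below 0 for none, beside 7.63% and 4.96% of all SMAD3 regions. Regions with a peak in siHK1 only made up 56.7% at these genes and 47.7% of the table, so sums over the 30 regions (194 reads in TGF, 246 in siHK1) depend on which library listed them. The 2 regions with a peak in both libraries had 38 and 31 reads. Setting libraries at 0 reads to 3 left 13 higher and 2 lower regions and a median of 0.81.

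**Figure D4:**
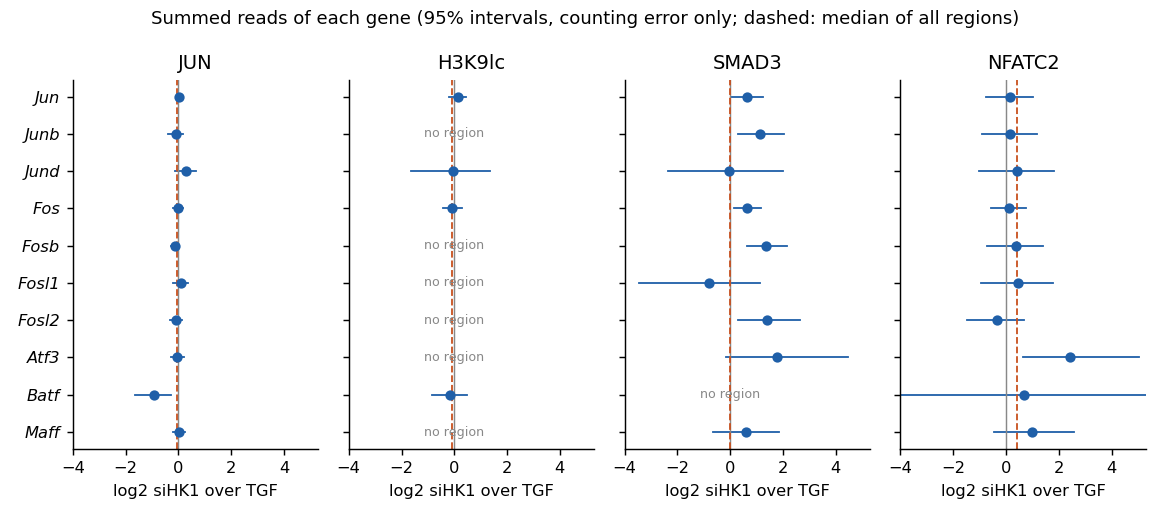
Log2 ratio of siHK1 over TGF of the summed reads of each AP-1 family gene (points) for JUN, H3K9lc, SMAD3 and NFATC2, with exact 95% intervals that cover counting error only (for Batf in the NFATC2 panel it runs past the axis) and dashed lines at the median of all regions. For JUN every gene but Batf (-0.94, from 1 region) lies between -0.13 and 0.27, and for SMAD3 7 of 9 genes lie above 0, where 17 of the 30 regions were listed through a peak in siHK1 only.

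NFATC2 was listed at all 10 genes, and at 77.3% of the 22473 symbols, with 38 regions, 28 of which had under 10 reads over both libraries. Only 2 regions had a mean of at least 10 scaled reads. They were the Junb promoter with 22 reads in TGF and 15 in siHK1 (0.16, -0.90 to 1.16) and the Jund start site with 11 and 9 (0.42, -1.04 to 1.82). The other gene sums ran from 50 and 33 reads at Fos (0.11, -0.58 to 0.76) down to 1 and 1 at Batf. Atf3 had 3 and 11 reads over 3 regions, a ratio of 2.42 (0.65 to 5.05), but all 3 had a peak in siHK1 only and so were picked where that library is high. The interval lay above 0 for 3 of the 38 regions and below 0 for none, beside 4.88% and 2.31% of all NFATC2 regions. All 3 had a peak in siHK1 only and so were listed where that library is high. Past 2-fold, 16 of 38 regions were higher and 8 lower, beside 38.4% and 25.6% of all NFATC2 regions. Peaks were marked in siHK1 only at 19 regions, which held 15 of the 16 higher ones, in TGF only at 17, which held all 8 lower ones, and in both libraries at 2. The median ratio was 0.56, against 0.41 over all. Without scaling, which moves every NFATC2 ratio by -0.7, it turned to -0.14, with 12 lower and 9 higher. Shares of all regions were not counted at that setting. With libraries at 0 reads set to 3, there were 13 higher and 3 lower regions and the median was 0.30. The nearest of the 10 NFATC2 regions of Jun lay 6.70 kb from its start site. NFATC2 regions overlapped 15 of 53 JUN regions (28.3%, against 15.4% of all and 22.1% of those at promoters). Both SMAD3 and NFATC2 overlapped 7 JUN regions (13.2%, against 7.5% of all and 11.6% of those at promoters).

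The H3K9lc table of TGF and siHK1 listed 12 regions at 4 genes, 5 at Jun, 3 at Fos and 2 each at Jund and Batf, and none at Junb, Fosb, Fosl1, Fosl2, Atf3 or Maff. It listed 57.8% of the 22473 symbols. Of the 9 genes with a JUN region within 3 kb of a start site, Jund (11.1%) had an H3K9lc region there, and 15.4% of all 11980 such genes did. The Jund region, chr8:70698423-70698705, had 11 reads in TGF and 4 in siHK1 (-0.54, -2.75 to 1.11). The deepest regions lay far from start sites, with 116 and 55 reads at Fos 26.6 kb downstream (-0.26, -0.76 to 0.21), 63 and 42 at Fos 29.8 kb downstream (0.23, -0.37 to 0.81), and 101 and 67 at Jun 205 kb upstream (0.22, -0.25 to 0.68). Beside the last lay a Jun region 209 kb upstream with a peak in siHK1 only and 44 and 35 reads (0.49, -0.20 to 1.16), and 1 lying 208 kb upstream with a peak in TGF only and 41 and 20 (-0.21, -1.07 to 0.58). The deeper Batf region, 35.2 kb upstream with a peak in TGF only, had 55 and 28 reads (-0.15, -0.87 to 0.52). No H3K9lc region at these genes had an interval that excluded 0, which lay below 0 for 4.01% and above 0 for 4.22% of all regions. Past 2-fold, none of 12 was lower and 1 was higher, a Jund region with 2 and 3 reads, beside 13.7% lower and 13% higher of all regions. The median ratio was -0.14, against -0.08 over all. Summed reads were 478 and 274 (0.01, -0.21 to 0.23).

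H3K9lc and JUN regions also lay on different kinds of sequence. Bases masked as repeats in the reference made up a median of 54.7% of each H3K9lc region at these genes, and 9.20% of each JUN region. Over the whole tables the medians were 61.2% and 8.99%. JUN regions overlapped H3K9lc at 2 of 53 places (3.77%, against 6.07% of all), at Jund and 50.9 kb downstream of Fos, and SMAD3 and NFATC2 were listed at both as well. Such sharing by all 4 antibodies held for 2.32% of all JUN regions. At the Fos place 100% of the bases of the JUN and H3K9lc regions were masked, against 14.4% and 27.9% at Jund. Reads at the Fos place were few in TGF and siHK1, 22 and 6 for JUN and 10 and 5 for H3K9lc.

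Between NC and TGF, H3K9lc reads at these genes could be read only in coarse terms. The NC library had no read at 45.3% of all regions of that table, and 0 to 3 reads at each of the 10 regions of AP-1 family genes. At Fos 26.6 kb downstream it had 1 read, beside 116 in TGF and 55 in siHK1. At Fos 29.8 kb downstream NC had 3 reads, beside 63 and 42. At Jun 205 kb upstream NC had 3, beside 101 and 67. At the Jund start NC had 1, beside 11 and 4. Both tables list 7 regions with the same coordinates, all with a peak in TGF and none with a peak in NC. They were thus listed where TGF is high, and their order of reads supports no difference. TGF had the most raw reads at all 7, and also the most reads over all listed regions. With equal totals siHK1 was above TGF at Fos 29.8 kb downstream (0.23) and at Jun 205 kb upstream (0.22). Both of these regions also had a peak in siHK1, and the others did not. The TGF counts in both tables come from 1 library, with identical counts at all 44088 regions of equal coordinates.

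**Figure D5:**
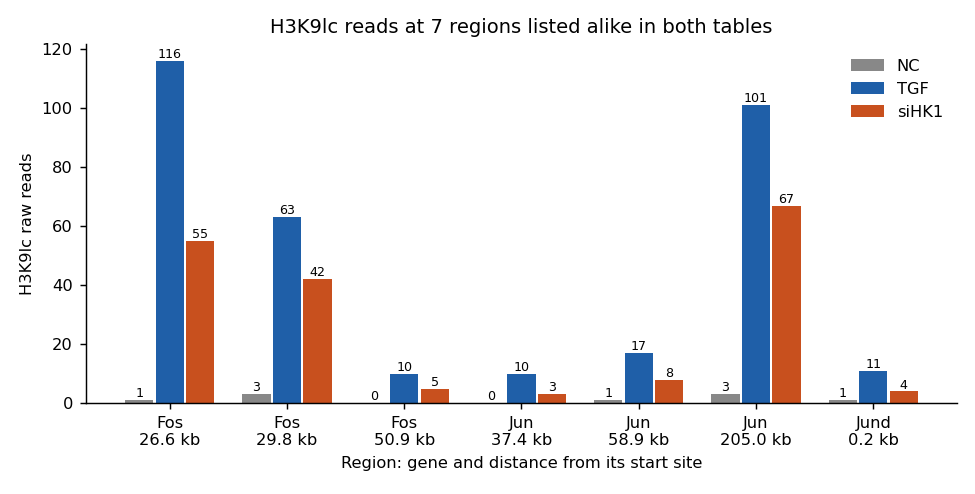
Raw H3K9lc reads in the NC (grey), TGF (blue) and siHK1 (red) library at the 7 regions of Fos, Jun and Jund that have the same coordinates in both tables, labelled by the distance from the gene's start site, with the number of reads above each bar. The libraries are not scaled and NC holds far fewer reads over its table (115572) than TGF (2313288). NC has at most 3 reads in a region, and TGF, which also has the most reads over all listed regions, has the most in all 7. All 7 were listed with a peak in TGF and none with a peak in NC.

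The direction between NC and TGF depended on the settings. The median ratio of TGF over NC was -0.04 with equal totals, against -0.08 over all regions of that table. It was -0.83 with a pseudocount of 1, and 3 regions were then lower. It was 0.79 when regions with a peak in both libraries were set to a ratio of 0, which moved all ratios by 0.83. With no scaling, which moved all ratios by 4.32, it was 4.29. With equal totals 2 of 10 regions were lower in TGF, where 24.9% of all were, and 1 was higher, at Fos (1.96, 0.03 to 7.85, with a peak in TGF only), where 14.7% were. The Fos interval was the 1 of 10 above 0, and none lay below, beside 0.39% and 2.5% of all regions. The lower ones had 1 and 11 reads at Jund and 1 and 2 at Fosl2. Summed over the 10 regions, NC had 15 reads and TGF 429, a ratio of 0.47 (-0.22 to 1.36) with equal totals.

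Other genes of the same network were read in the same way, by counts and medians. For JUN, 14 other bZIP partner genes such as Atf4 and Nfe2l2 had 77 regions, 6 lower and 7 higher in siHK1 past 2-fold, with a median ratio of 0.05. The 17 genes of the upstream arm, MAP kinases and the serum response factor with its partners, had 121 regions, 14 lower and 5 higher (median 0.01). The 19 other immediate early genes, such as Egr1 and Myc, had 180 regions, 14 lower and 6 higher (median 0.04). In percent lower and higher these lists had 7.79 and 9.09, 11.6 and 4.13, and 7.78 and 3.33, in that order. Over all JUN regions 11.4% were lower and 7.44% higher (median -0.04). The median JUN level of the immediate early genes lay at percentile 70.5 of the table, and that of AP-1 family genes at 72.5. The bZIP partners (54.7) and the upstream arm (49.7) lay near the middle.

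For SMAD3, the immediate early genes had 33 of 88 regions higher and 21 lower (median 0.49), the bZIP partners 12 of 47 higher and 13 lower (median 0.01), and the upstream arm 23 of 78 higher and 35 lower (median -0.55). In percent higher and lower that is 37.5 and 23.9, 25.5 and 27.7, and 29.5 and 44.9. Over all SMAD3 regions 32.8% were higher and 31.7% lower (median 0.01). For NFATC2 the medians were 0.22, 0.70 and 0.36 in that order, over 98, 58 and 112 regions. For H3K9lc in siHK1 over TGF they were -0.21, 0.03 and 0.01, over 29, 48 and 68 regions. In TGF over NC they were -0.49, -0.35 and -0.08 with equal totals, over 32, 42 and 61 regions. These lists share the libraries of the AP-1 family genes and are not independent of them.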

How the data were processed

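Regions whose assigned symbol was an AP-1 family gene were taken from 5 deposited tables of 9 libraries. The members and gene lists were chosen with earlier results of these data known. The authors deposited raw read counts per region and library, and 0 or 1 marks for a called peak, and both were used as deposited. The tables also hold the authors' normalized values, log2 ratios, p-values and calls, which were not used. The submitters' processing notes name BWA 0.7.12 and mm10, while the study's methods name Bowtie2, MACS2 and a later build. All 30096 transcripts of the JUN table that were found in GENCODE M21 had its GRCm38 coordinates, so coordinates are on GRCm38, counted from 1. The library titled TGF was not used because no antibody is given for it.

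Ratios were log2 of (count + 0.5) at equal totals over listed regions, with exact 95% intervals that were tested on simulated data, and past 2-fold counted as lower or higher. Library depths are unknown here, and no spike-in counts were used. Named regions were, for each gene, those at the start site and of highest level, and per table the 3 lowest and 3 highest ratios with a mean of at least 20 scaled reads (10 for SMAD3 and NFATC2). Others, such as distant Jun regions and the letters TGACATCA and TTACCTCA, were chosen after their values were seen. A promoter is within 3 kb of a start site by the authors' annotation. Alternatives were no scaling, scaling on shared peaks, a pseudocount of 1, a mean of at least 10 scaled reads, 1.5-fold, regions within 50 kb, reads without the length, and motifs in whole regions. Python 3.11.15, numpy 2.4.6, pandas 2.3.3, scipy 1.17.1, pysam 0.24.0 and matplotlib 3.10.9 were used.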

Additional observations from a re-analysis of the deposited data

How the results depend on the processing

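With 1 library per group there is no replicate error, and the reads set the precision: the interval of the ratio spanned 0 at all but 6 of 53 JUN, 6 of 30 SMAD3, 3 of 38 NFATC2, 0 of 12 H3K9lc and 1 of 10 NC regions. No paired analysis was possible because each group has 1 library and no ratio comes from a test. The deposited per-library normalized values were not run as an alternative, since their columns do not name a library. Scaling on shared peaks and setting libraries at 0 reads to 3 were chosen after seeing the data. Without scaling, JUN had a median of -0.97 with 24 regions lower and 0 higher, H3K9lc in siHK1 over TGF -0.95 with 5 and 0, NFATC2 12 lower and 9 higher (median -0.14), and H3K9lc in TGF over NC 4.29 with 0 lower and 9 higher. Scaling on shared peaks gave 0.79 with 1 lower and 2 higher for TGF over NC. A mean of at least 10 scaled reads left 1 lower and 1 higher for JUN, 0 higher for H3K9lc in siHK1 over TGF, 0 lower and 4 higher for SMAD3, 0 and 0 for NFATC2, and 0 lower for TGF over NC. At 1.5-fold, 8 JUN regions, 1 H3K9lc region and 4 regions in TGF over NC were lower. Within 50 kb 3 SMAD3 regions were lower. A pseudocount of 1 gave -0.83 with 3 lower for TGF over NC. With libraries at 0 set to 3, 2 SMAD3 and 3 NFATC2 regions were lower. The whole-region motif share was 34.0%. Of 38 gene sums, 13 changed sign without scaling, and in TGF over NC Jund (2.94) and Fosl2 (0.74) did so from past 2-fold, while 2 of 38 did with scaling on shared peaks. Dropping the scaling moves every ratio of a table by 1 factor by construction. In log2 it is -0.89 for JUN, -0.81 for H3K9lc in siHK1 over TGF, -0.7 for NFATC2 and 4.32 for TGF over NC. The shares of all regions past 2-fold were not counted at these other settings. The counts here thus describe AP-1 family genes alone and do not set them apart from other genes. The cause of the other shifts was not tested.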
